A study of Mus musculus with 4 samples.

Results

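The promoters described here are CpG-poor and nevertheless carried histone H3 trimethylated at lysine 4 (H3K4me3) in mouse hippocampus. They were chosen by 2 measurements. The first was a CpG observed/expected ratio below 0.3 in the mm10 sequence 500 bp on either side of a gene's 5′ end, where the ratio sets the number of CpG dinucleotides against the number that the C and G content would give. The second was an H3K4me3 peak of the replicated list that reached the same 500 bp on either side. Of 21938 protein-coding genes of the GENCODE M21 annotation, 7267 had a CpG-poor 5′ end by this limit, and 501 of these (6.89%) carried a peak. The same overlap held for 12867 of the other 14671 genes, called CpG-rich here (87.7%), and for 13368 of all genes (60.9%). Because the peak itself chose the promoters, these shares and the peak values below are descriptions, with no test.

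H3K4me3 was profiled by chromatin immunoprecipitation and sequencing in frozen hippocampus, which the labels call a layer of hippocampus without naming one, of male B6CASTF1/J mice, adult at an age of 2 months. B6CASTF1/J is a first-generation hybrid of a laboratory strain and a wild-derived strain, and no treatment or genetic change is given. The 4 libraries were 2 technical replicates each of pool D and pool C, and each pool combined 7 tissue samples. Both libraries of a pool entered 1 peak list, so the spread between pools is the only replicate spread in these files, and the depth behind the lists is unknown. The bulk tissue mixes cell types, and a peak present in few cells cannot be told apart from a weak peak present in many.

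H3K4me3 is laid down by enzyme complexes of the SET1 and MLL families around active start sites. Some of these complexes hold a CXXC domain protein that binds unmethylated CpG, and most broadly active genes of mammals start in CpG islands that carry the mark. CpG-poor promoters are typical of genes used in few cell types, and in vertebrates their sparse CpGs are often methylated where the gene is silent.

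The sequences below are the 150 bases upstream of the annotated 5′ end, 5′ to 3′ on the gene's strand, from mm10, with each CpG in capitals. The first set shows marked promoters whose peak was among the 15 strongest of the class described below as self-standing. Their low CpG counts follow from the rule, which chose windows of low CpG ratio. None has more than 3 CpGs, and Glrx, Lrrn3 and Scn2b have 0. The printed bases of Ltc4s lie outside its replicated peak, whose nearest base is 157 bp downstream of the 5′ end. Those of Lrrn3 and Psmb10 lie only partly under theirs.
Bcl9 (mm10 chr3:97297918-97298067, minus strand): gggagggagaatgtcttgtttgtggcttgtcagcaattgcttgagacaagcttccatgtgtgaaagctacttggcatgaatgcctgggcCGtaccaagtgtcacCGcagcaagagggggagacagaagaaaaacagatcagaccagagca
Lrrn3 (mm10 chr12:41486432-41486581, minus strand): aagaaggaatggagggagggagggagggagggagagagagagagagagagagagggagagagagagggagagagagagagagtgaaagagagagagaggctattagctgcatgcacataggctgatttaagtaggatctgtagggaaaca
Glmp (mm10 chr3:88324873-88325022, plus strand): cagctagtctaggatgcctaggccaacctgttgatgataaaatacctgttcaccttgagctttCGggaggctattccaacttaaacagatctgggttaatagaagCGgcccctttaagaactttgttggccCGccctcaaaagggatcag
Psmb10 (mm10 chr8:105938445-105938594, minus strand): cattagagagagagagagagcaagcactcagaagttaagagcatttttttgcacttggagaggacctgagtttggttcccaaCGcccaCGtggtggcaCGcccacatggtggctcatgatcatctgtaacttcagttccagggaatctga
Zfp950 (mm10 chr19:61140841-61140990, minus strand): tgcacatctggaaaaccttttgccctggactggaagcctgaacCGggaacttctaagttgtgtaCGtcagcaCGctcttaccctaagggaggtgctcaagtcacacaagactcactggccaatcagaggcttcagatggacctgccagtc
Kdm6b (mm10 chr11:69413676-69413825, minus strand): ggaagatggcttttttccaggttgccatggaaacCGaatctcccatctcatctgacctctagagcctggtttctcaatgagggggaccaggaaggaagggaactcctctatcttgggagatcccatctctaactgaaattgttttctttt
Tpp1 (mm10 chr7:105752236-105752385, minus strand): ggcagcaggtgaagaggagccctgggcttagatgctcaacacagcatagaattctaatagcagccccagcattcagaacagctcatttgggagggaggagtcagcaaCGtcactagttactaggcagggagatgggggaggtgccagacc
Ltc4s (mm10 chr11:50238617-50238766, minus strand): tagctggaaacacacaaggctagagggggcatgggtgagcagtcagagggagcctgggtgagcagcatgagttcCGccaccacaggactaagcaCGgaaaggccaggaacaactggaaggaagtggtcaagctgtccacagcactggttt
Glrx (mm10 chr13:75839718-75839867, plus strand): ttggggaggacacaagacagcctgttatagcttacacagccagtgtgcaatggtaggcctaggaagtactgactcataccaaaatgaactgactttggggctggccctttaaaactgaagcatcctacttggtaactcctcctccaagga
Cyp4f13 (mm10 chr17:32947403-32947552, minus strand): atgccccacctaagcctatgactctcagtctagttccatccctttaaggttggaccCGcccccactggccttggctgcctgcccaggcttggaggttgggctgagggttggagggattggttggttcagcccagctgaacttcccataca
Scn2b (mm10 chr9:45117632-45117781, plus strand): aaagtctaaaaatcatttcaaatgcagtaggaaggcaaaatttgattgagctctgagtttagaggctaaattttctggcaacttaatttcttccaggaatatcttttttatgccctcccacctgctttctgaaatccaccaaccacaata

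A second set comes from the 10 widest self-standing peaks. Gpr22 has 0 CpGs in the 150 bases, and Neurod6 has 3. Rnf112 with 5 and Stmn4 with 4, which are not printed, have more than any of the first set.
Gpr22 (mm10 chr12:31713948-31714097, minus strand): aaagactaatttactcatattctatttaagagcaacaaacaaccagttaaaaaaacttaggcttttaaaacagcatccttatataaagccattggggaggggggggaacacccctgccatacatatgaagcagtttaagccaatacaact
Neurod6 (mm10 chr6:55681264-55681413, minus strand): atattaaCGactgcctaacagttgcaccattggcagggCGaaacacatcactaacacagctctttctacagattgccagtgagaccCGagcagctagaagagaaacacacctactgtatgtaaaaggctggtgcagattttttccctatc

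Among the 10 strongest CpG-rich marked promoters, the number in the same 150 bases ran from 4, at Pnisr and Cdipt, to 34, at Srsf6, so that the lowest of them overlap with the second set. These promoters were chosen as CpG-rich by the same ratio, so their higher counts follow from that choice. Kif3b with 16 CpGs and Cd81 with 10 are printed.
Kif3b (mm10 chr2:153291263-153291412, plus strand): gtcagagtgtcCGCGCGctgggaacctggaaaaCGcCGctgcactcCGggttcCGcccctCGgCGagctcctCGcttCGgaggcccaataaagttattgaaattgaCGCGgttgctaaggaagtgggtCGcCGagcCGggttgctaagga
Cd81 (mm10 chr7:143052589-143052738, plus strand): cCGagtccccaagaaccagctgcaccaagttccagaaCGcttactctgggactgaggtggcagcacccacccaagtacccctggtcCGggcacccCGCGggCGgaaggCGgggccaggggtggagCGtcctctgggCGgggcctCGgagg

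Inside the CpG-poor range, the share of promoters with a replicated peak was higher in each bin of higher CpG ratio. It was 0% of 525 genes at ratios below 0.05, 0.958% at 0.05 to 0.1, 2.72% at 0.1 to 0.15, 5.38% at 0.15 to 0.2, 11.5% at 0.2 to 0.25 and 21.4% at 0.25 to 0.3. Just above the limit, at 0.3 to 0.35, 32.8% carried a peak, so the limit of 0.3 cuts through a gradient and not through a gap. The marked promoters nearest below the limit were Klhl33 (ratio 0.29997), Mxra8 (0.29990) and Slc25a45 (0.29967), and Klhl33 had a 1743 bp peak at the 69.2nd percentile of signal. The nearest marked ones above it included Zfp937 (0.30014) and Cald1 (0.30030), and Cald1 had a 1838 bp peak at the 40.5th percentile. Pool D gave a peak at 402 of the CpG-poor promoters (5.53%) and pool C at 599 (8.24%), and pool C was above pool D in each CpG-poor bin that held any peak.

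**Figure D1:**
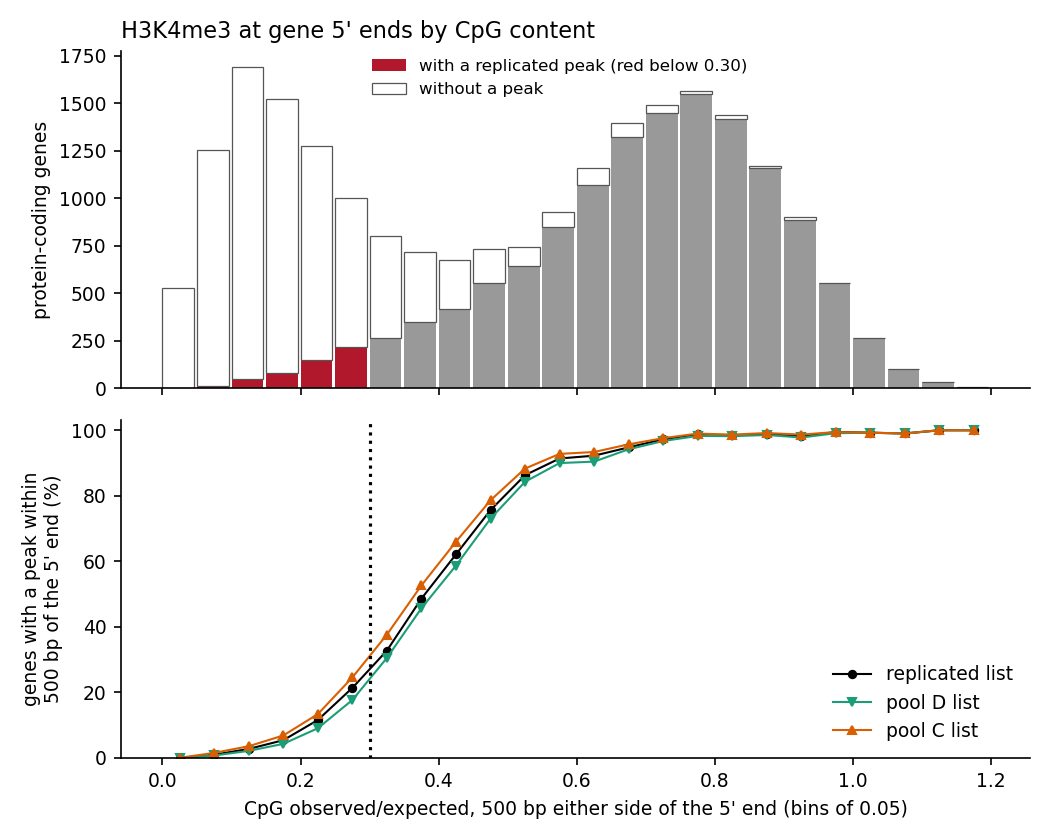
The upper panel counts protein-coding genes by CpG observed/expected ratio around the 5′ end (bins of 0.05), with genes that carry a replicated peak filled and the CpG-poor ones in red. The lower panel gives the share with a peak in the replicated list, pool D and pool C (%), which is 0% below 0.05 and 21.4% at 0.25 to 0.3 in the replicated list.

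The 501 promoters fell into 4 classes by the start sites that lay under the peaks reaching their window. In 337 (67.3%) the peaks covered no CpG-rich protein-coding start site and no start site of another protein-coding gene, and these are called self-standing. In 36 (7.19%) the peaks covered a CpG-rich start site of another gene, in some of them, such as Elp5 and Dnajc14, along with one of the same gene. In 114 (22.8%) they covered a CpG-rich start site of the same gene and none of another gene. In 14 (2.79%) they covered only CpG-poor start sites that included another gene's. Self-standing promoters were far from other marked CpG-rich starts: the median distance was 30826 bp, and 257 of the 337 were over 10 kb away. The class leaves out promoters with such a start under the peak, so this distance is partly set by its definition. Over all 501 promoters the median was 12503 bp, and 269 were over 10 kb away. The 6766 CpG-poor promoters without a peak lay at a median of 98740.5 bp from one.

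Self-standing peaks were, in the median, narrower and weaker than those of the classes with a CpG-rich start and of CpG-rich promoters. A wider peak is likelier to cover another start, so the definition of the class itself favours narrow peaks. CpG-rich promoters were not split in this way. Each promoter was given its strongest peak by the signal value, and strength is stated as the percentile of that value among the 27063 peaks of the replicated list. Self-standing promoters had a median width of 933 bp at the 30.7th percentile, against 2064 bp at the 76.2nd percentile in CpG-rich marked promoters. Over all 501 marked CpG-poor promoters, without the split, the medians were 1232 bp and the 41.4th percentile. Promoters with a CpG-rich start of the same gene under the peak had a median of 2010.5 bp at the 65.2nd percentile, and those with a CpG-rich start of another gene had 2030 bp at the 76.9th percentile. The middle 50% of widths ran from 508 to 1541 bp in self-standing promoters, against 1532 to 2786 bp in CpG-rich marked promoters. Peaks narrower than 600 bp made up 29.7% of the self-standing class and 2.48% of the CpG-rich marked promoters. Weak peaks were common in the self-standing class: 244 of 337 (72.4%) reached a −log10 q of 5, against 99.0% of the CpG-rich marked promoters.

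**Figure D2:**
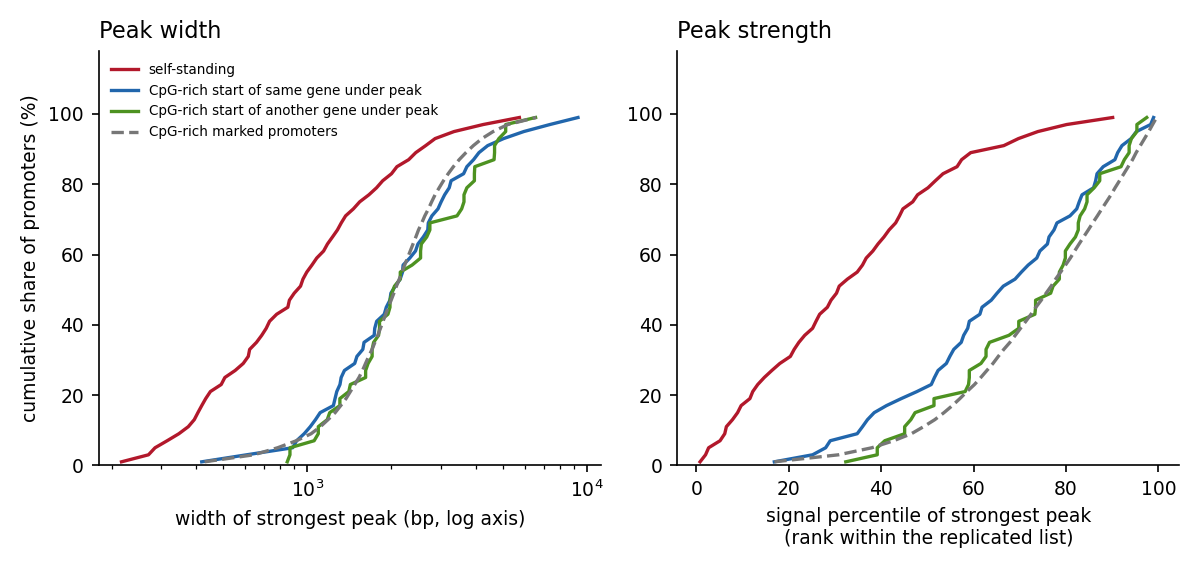
Cumulative share of promoters (%) by width of the strongest peak (left, bp on a log axis) and by its signal percentile within the replicated list (right), for 3 classes of marked CpG-poor promoters and for CpG-rich marked promoters (dashed). The self-standing curve lies to the left of the others, with medians of 933 bp and the 30.7th percentile, and the other 2 classes run close to the dashed line in width. In signal the class with a CpG-rich start of the same gene lies to the left of the dashed line, with medians at the 65.2nd and 76.2nd percentiles.

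Summits of self-standing promoters lay near those of CpG-rich ones. Both groups were chosen by a peak that reached the 500 bp on either side of the 5′ end. Summits close to the 5′ end are therefore partly set by the rule in both. The median summit lay 233 bp downstream of the 5′ end in self-standing promoters, against 217 bp downstream in CpG-rich marked promoters. It lay within 500 bp of the 5′ end in 76.6% of self-standing promoters and in 80.8% of CpG-rich ones. Summits 200 to 400 bp upstream, however, made up 2.08% of the self-standing class and 7.71% of CpG-rich marked promoters, and the summit was downstream in 90.8% and 83.7% of them. The peak covered the 5′ end itself in 61.4% of self-standing promoters and in 94.9% of CpG-rich ones. In the class with a CpG-rich start of the same gene, the summit was downstream of the 5′ end in 114 of 114 promoters, at a median of 870 bp. The 5′ end is the outermost start, so peaks of this class reach over a downstream start by definition. Their downstream summits are therefore no separate result. The edge of the window also counts: among the promoters kept, the nearest peak of Nhlh2 began 482 bp and that of Pdlim2 497 bp from the 5′ end, while Maff (508 bp), Klf1 (516 bp) and Dbx2 (519 bp) were left out.

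**Figure D3:**
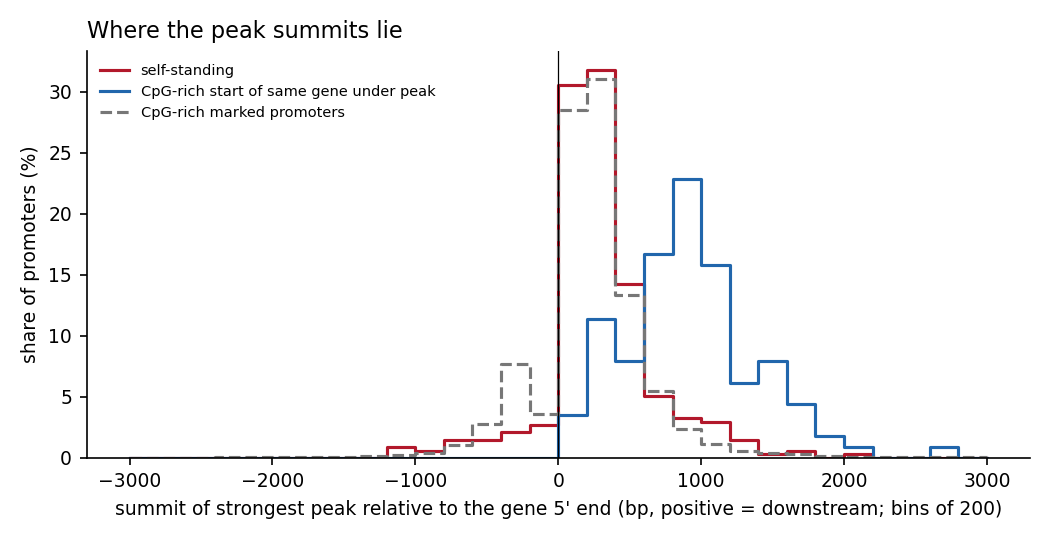
Position of the strongest peak's summit relative to the gene 5′ end (bp, positive downstream, bins of 200) as a share of promoters (%). Self-standing and CpG-rich marked promoters (dashed) both have most summits 0 to 400 bp downstream, the CpG-rich ones have a second, smaller group upstream, and promoters with a CpG-rich start of the same gene have theirs near 870 bp.

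In both pools, a majority of the marked CpG-poor promoters had a peak. The replicated list draws on both pools and chose the promoters, so presence in both, here and below, is partly built into the rule. Of the 501, 401 had a peak within 500 bp of the 5′ end in pool D and 487 in pool C. That left 399 (79.6%) with a peak in both pools, 88 (17.6%) in pool C alone, 2 in pool D alone and 12 in neither single-pool list. Self-standing promoters had a peak in both pools in 252 of 337 cases (74.8%) and in pool C alone in 71 (21.1%). Among CpG-rich marked promoters 98.7% had a peak in both pools and 1.24% in pool C alone. Where both pools had a peak, the strongest one was wider in pool C in 96.2% of the marked CpG-poor promoters, and the median ratio of pool D width to pool C width was 0.755. The ratio was 0.735 in the self-standing class, against 0.854 in CpG-rich marked promoters, of which 94.3% were wider in pool C. The pool C list as a whole was longer, with 34193 peaks against 24690 in pool D. Its part in these differences was not tested. The 12 promoters with no peak in either pool had weak ones in the replicated list. They included Fermt3, an adaptor of blood cell integrins with a 272 bp peak of −log10 q 0.289, which was chosen after its values were seen.

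**Figure D4:**
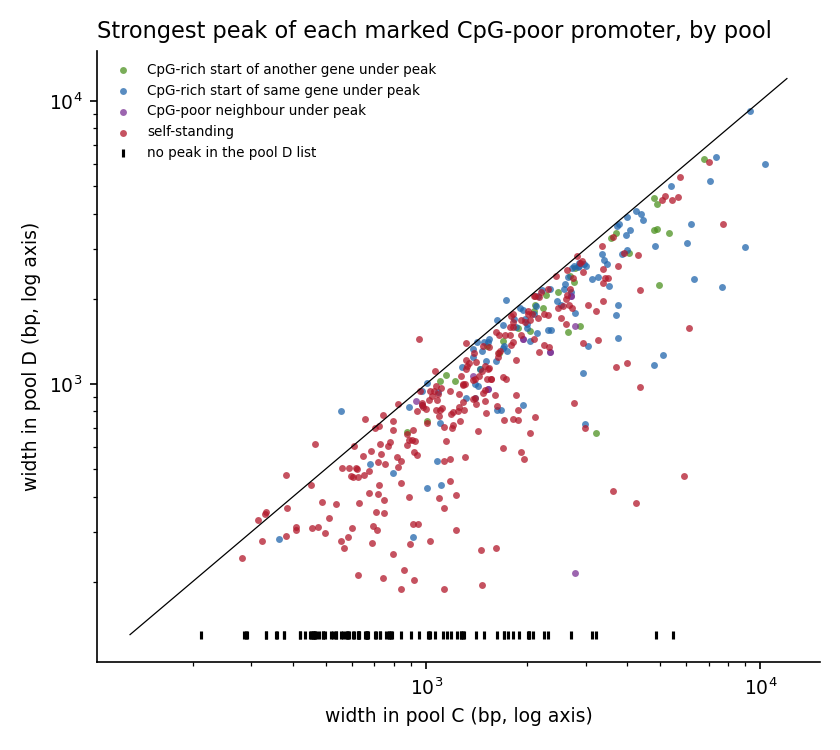
Width of the strongest peak in pool D against its width in pool C (bp, log axes), with 1 point per marked CpG-poor promoter coloured by class and ticks at the bottom for promoters with no pool D peak. Most points lie below the line of equal width, and 96.2% of the promoters with a peak in both pools were wider in pool C.

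The strongest self-standing peaks belonged to genes of varied function. Bak1, a cell death effector of the BCL-2 family, had peaks of 1584 bp (pool D) and 1819 bp (pool C), at the 94.6th and 97.1st signal percentiles of those lists. Tef, a transcription factor whose level follows the circadian clock, had 2851 bp (pool D) and 4292 bp (pool C), at the 90.8th and 93.4th percentiles. Bcl9, a coactivator in Wnt signalling, had 2368 and 3433 bp in pools D and C. In these 3 promoters both pools placed the peak in the top 15% of their list. Glmp and Tpp1, a lysosomal membrane protein and a lysosomal peptidase, had narrower peaks. Glmp had 1305 bp (pool D) and 1664 bp (pool C), and Tpp1 had 1056 bp (pool D) and 1703 bp (pool C), yet Tpp1 reached the 97.4th percentile in pool D. Psmb10, a catalytic subunit of the immunoproteasome, had 2049 bp (pool D) and 2119 bp (pool C), a mean of 2084 ± 49.5 bp (SD, n = 2 pools). Scn2b, an accessory subunit of voltage-gated sodium channels, had 2025 bp (pool D) and 2174 bp (pool C), at the 72.7th and 83.7th percentiles. Glrx, a glutaredoxin, had 1852 bp (pool D) and 2737 bp (pool C). Zfp950, a zinc finger gene, and Cyp4f13, a cytochrome P450, belong to families of close copies, and how reads that match several copies were handled is not given in the sources used here.

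Of the 10 widest self-standing peaks, 8 lay between the 28.1st and the 73.2nd signal percentile of the replicated list. Gpr22, an orphan receptor coupled to G proteins, had 6062 bp (pool D) and 7015 bp (pool C), and its signal was near the middle of both lists, at the 57.3rd and 58.2nd percentiles. Stmn2 and Stmn4, stathmins that act on microtubules in neurons, had 4484 and 4471 bp in pool D and 5074 and 5438 bp in pool C. Kcnip3, a calcium-binding partner of potassium channels, had 4570 bp (pool D) and 5652 bp (pool C). Lrrn3, a leucine-rich repeat protein of neurons, had 4608 bp (pool D) and 5197 bp (pool C), a mean of 4902.5 ± 416 bp (SD, n = 2 pools). Each of these 5 was over 4 kb wide in both pools. Others rested on pool C. Kdm6b, a histone demethylase that removes the Polycomb mark, had 6412 bp in the replicated list and 5890 bp in pool C, but the strongest pool D peak to reach its window was 474 bp at the 23.8th percentile. Neurod6, a transcription factor of pyramidal neurons, had 1574 bp (pool D) and 6114 bp (pool C). Slco1c1, a thyroid hormone transporter, had 2144 bp (pool D) and 4365 bp (pool C).

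The sequence under the peak was richer in CpG than the window around the 5′ end in some self-standing promoters and not in others. Over the whole strongest peak the median ratio was 0.263 in the self-standing class, and 231 of 337 peaks (68.5%) were below 0.3. The richest stretch of 500 bp centred within the peak had a ratio below 0.3 in 81 promoters (24.04%), of 0.3 to 0.6 in 213 (63.2%) and of 0.6 or more in 43 (12.8%). Median widths in these 3 groups were 623, 948 and 1300 bp, and median signal percentiles were 18.1, 32.2 and 53.1. A wider peak offers more stretches, so its richest one is higher by construction. Chrm1, a muscarinic acetylcholine receptor abundant in hippocampus, stayed CpG-poor throughout, with no stretch above 0.237. Its peak was 2828 bp (pool D) and 2832 bp (pool C), at the 66.6th and 77.5th percentiles. Oprl1, the nociceptin receptor, had no stretch above 0.291 and peaks of 1633 bp (pool D) and 2612 bp (pool C). At the other end were Ltc4s, which makes leukotriene C4, with a stretch of 0.968 and its summit 1624 bp downstream, and Kdm6b, with a stretch of 0.848 and its summit 3439 bp downstream. Psmb10 (0.704), Stmn2 (0.705), Neurod6 (0.722) and Gpr22 (0.736) also held such a stretch, while Tef (0.359), Scn2b (0.357), Kcnip3 (0.339) and Glrx (0.331) did not. By the definition of the class, no annotated protein-coding start with a ratio of 0.3 or more in its own window lay under these peaks, and the printed upstream bases of the second kind are not the most CpG-rich part of their peaks. Of the self-standing promoters, 15 had a start of a gene of another type under the peak.

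The 8 self-standing promoters lowest in CpG carried peaks that ranged widely. Inpp5j, a phosphoinositide phosphatase, had 5 CpGs in its 1 kb window (ratio 0.0660) and peaks of 1906 bp (pool D) and 3047 bp (pool C), at the 72.1st and 78.8th percentiles. Ano3, a member of the anoctamin family, had 3 CpGs (ratio 0.0927) and peaks of 3307 bp (pool D) and 3627 bp (pool C). Slco1c1 had 3 CpGs and Scrg1, a gene first described in scrapie, had 5 CpGs with peaks of 2402 bp (pool D) and 2447 bp (pool C). Lrrc55, which encodes an auxiliary protein of calcium-activated potassium channels, had 4 CpGs and peaks of 382 bp (pool D) and 487 bp (pool C). Tdo2, a tryptophan-degrading enzyme used as a marker of dentate granule cells, had 4 CpGs, no peak in pool D and a 289 bp peak in pool C. Windows with 3 to 5 CpGs thus went with peaks of under 500 bp and of over 3 kb alike. Over all 501 promoters, median width was 1159.5 bp in the 12 promoters at ratios of 0.05 to 0.1, 1368 bp in the 46 at 0.1 to 0.15, 963.5 bp in the 82 at 0.15 to 0.2, 1232 bp in the 147 at 0.2 to 0.25 and 1230 bp in the 214 at 0.25 to 0.3, with no steady trend.

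The class with a CpG-rich start of the same gene, and none of another gene, under the peak held 114 promoters. That start lay at a median of 776.5 bp from the 5′ end (range 18 to 3735 bp), and within 1 kb in 88. The median ratio was 0.552 at that start and 0.251 at the 5′ end. The summit was nearer to the CpG-rich start than to the 5′ end in 105 of the 114, in peaks that cover that start by the definition of the class. Gapdh, the glycolytic enzyme often taken as a housekeeping gene, had a ratio of 0.286 at its annotated 5′ end and 0.592 at a start 891 bp away. Its peak was 3618 bp (pool D) and 3724 bp (pool C), with the summit 1276 bp downstream. Sod2, the mitochondrial superoxide dismutase, had a ratio of 0.116 at the 5′ end and 0.816 at a start 971 bp away, with peaks of 2605 bp (pool D) and 2873 bp (pool C) and the summit 1345 bp downstream. Sub1, a transcriptional coactivator, had 0.261 at the 5′ end and 0.825 at a start 925 bp away, and no pool D peak reached the 500 bp around its 5′ end. The pairs of sequences below, each the 150 bases upstream of the start named, show this difference within a gene. Sod2 has 0 CpGs at the 5′ end and 12 at the CpG-rich start, and Sub1 has 1 and 9.
Sod2 at the 5′ end (mm10 chr17:13006696-13006845, plus strand): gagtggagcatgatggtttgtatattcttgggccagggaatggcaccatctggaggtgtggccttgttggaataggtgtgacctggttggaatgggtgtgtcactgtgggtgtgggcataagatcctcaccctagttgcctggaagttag
Sod2 at the CpG-rich start (mm10 chr17:13007667-13007816, plus strand): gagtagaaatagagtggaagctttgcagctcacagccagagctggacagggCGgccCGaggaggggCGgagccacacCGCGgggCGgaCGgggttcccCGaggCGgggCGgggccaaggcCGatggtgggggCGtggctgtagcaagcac
Sub1 at the 5′ end (mm10 chr15:11996984-11997133, minus strand): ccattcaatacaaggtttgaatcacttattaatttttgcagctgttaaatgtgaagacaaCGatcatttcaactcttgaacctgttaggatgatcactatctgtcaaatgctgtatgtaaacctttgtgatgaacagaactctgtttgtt
Sub1 at the CpG-rich start (mm10 chr15:11996059-11996208, minus strand): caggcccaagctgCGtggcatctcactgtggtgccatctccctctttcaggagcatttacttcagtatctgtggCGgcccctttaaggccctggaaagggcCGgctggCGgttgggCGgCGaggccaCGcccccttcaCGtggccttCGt

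The 5 widest peaks of the 501 promoters were of this kind, at Cacng8, Tcf4, Gria1, Lrrtm4 and Galnt17, of which the first 2 and the last were named after their values were seen. The ratio at their CpG-rich start ran from 0.350 in Gria1 to 0.852 in Tcf4. Cacng8, an accessory subunit of AMPA receptors, had 5971 bp (pool D) and 10300 bp (pool C), and Tcf4, a transcription factor of neurons, 9246 bp (pool D) and 9305 bp (pool C). Gria1, an AMPA receptor subunit, had 3045 bp (pool D) and 8988 bp (pool C), so that its width rested on pool C. Lrrtm4, a synaptic adhesion protein, was wide in both pools, with 6325 bp (pool D) and 7340 bp (pool C). In the 36 promoters with another gene's CpG-rich start under the peak, the summit was over 1 kb from the 5′ end in 52.8%, and it lay within 500 bp in 2.78%. The taste receptor gene Tas1r1 shared the peak of Nol9, with the summit 877 bp upstream of Tas1r1. The muscle creatine kinase gene Ckm shared that of Klc3, with the summit 886 bp upstream. The other way round, 593 of the 6766 CpG-poor promoters without a peak (8.76%) had one within 500 bp of another start of the same gene. The neuronal gene Rbfox3, the astrocyte gene Gfap and the microglial gene Csf1r were among them.

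Of the 14 promoters with only CpG-poor starts under the peak, 10 formed 5 pairs within the class. Igtp and Irgm2, interferon-induced GTPases with 5′ ends 62 bp apart on the same strand, shared peaks of 959 bp (pool D) and 1528 bp (pool C). Rtp4, an interferon-induced gene, and Masp1, a protease of the lectin complement pathway, start 524 bp apart on opposite strands and shared peaks of 1301 bp (pool D) and 2341 bp (pool C). The cytokine gene Il18 and the carotene oxygenase gene Bco2 start 354 bp apart on opposite strands, with peaks of 1437 bp (pool D) and 1948 bp (pool C). Tmem176a and Tmem176b start 577 bp apart on opposite strands, with 2048 bp (pool D) and 2709 bp (pool C). Usp37 and Plcd4 start 1396 bp apart, with 1 peak of 2780 bp over both in pool C and separate peaks of 215 and 1606 bp in pool D. Mpnd, also of this class, shared a 446 bp replicated peak with the self-standing promoter of Stap2, which starts 127 bp away on the opposite strand, and both had 491 bp in pool C and no pool D peak. Each of these pairs is counted as 2 promoters here although it rests on 1 pool C peak.

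Further features of the promoters and their genes were set beside those of CpG-poor promoters without a peak. The median GC content, which enters the expected CpG number and so the rule, was 50.8% in the 501 promoters, against 44.7% in CpG-poor promoters without a peak and 59.5% in CpG-rich marked ones. The median number of CpGs in the window, which the rule used as well, was 14, against 7 and 64 in these groups. Their genes were longer, with a median of 19554 bp against 8505 bp in CpG-poor genes without a peak, and 25338 bp in CpG-rich marked genes. Single-start genes made up 21.8% of the 501 and 43.0% of the CpG-poor genes without a peak. The class with a CpG-rich start of the same gene can hold none, by its definition, which lowers the share of the 501. It was 28.8% in self-standing promoters and 28.8% in CpG-rich marked ones. The group without a peak lies lower in CpG, so the comparison was also made within ratios of 0.2 to 0.3, a range chosen after the values were seen. There the median GC content was 50.6% in 361 marked promoters against 47.4% in 1914 without a peak, and the median gene length was 21858 bp against 13035 bp.

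Few of the marked CpG-poor promoters held a TATA box, in numbers that moved with the letters searched. The letters TATAAA on the gene's strand, starting 40 to 20 bp upstream of the 5′ end, were found in 3 of the 501 (0.599%), in 367 CpG-poor promoters without a peak (5.42%) and in 101 CpG-rich marked ones (0.785%). Within ratios of 0.2 to 0.3 the counts were 2 of 361 (0.554%) and 88 of 1914 without a peak (4.60%). With TATAAA anywhere from 60 to 1 bp upstream the shares were 1.597% of the 501 and 7.94% of those without a peak, and with the shorter letters TATA 40 to 20 bp upstream they were 3.19% and 13.2%. With the pool C list in place of the replicated one, 7 of 599 marked promoters (1.17%) and 5.44% of those without a peak held TATAAA. Of the 3 marked CpG-poor promoters with the motif, 2 were self-standing, and 1 of them is printed below as the 60 bases upstream, with the motif in capitals. Adamtsl2, an extracellular matrix protein, had the motif 30 bp upstream and peaks of 470 bp (pool D) and 604 bp (pool C). The annotated 5′ end is the outermost one, and a start used elsewhere in the gene would not be seen by this count.
Adamtsl2 (mm10 chr2:27079319-27079378, plus strand): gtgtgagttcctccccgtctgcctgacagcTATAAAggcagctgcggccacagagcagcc

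Other motifs were searched on both strands from 250 bp upstream to 50 bp downstream, a window of 300 bases. The GC box GGGCGG, the site of SP family factors, was in 72 of 337 self-standing promoters (21.4%), in 6.71% of CpG-poor promoters without a peak, in 65.03% of CpG-rich marked ones and in 43.0% of all promoters. Its letters hold a CpG, and within ratios of 0.2 to 0.3 it was in 22.5% of self-standing promoters and 12.3% of those without a peak. The CCAAT box CCAAT was in 34.4% of self-standing promoters, 40.4% of those without a peak, 38.3% of CpG-rich marked ones and 39.0% of all. The E-box CAGCTG, which factors such as Neurod6 can bind, was in 20.5%, 17.7%, 14.04% and 15.6% of the same groups. The interferon response core GAAANNGAA was in 14.5%, 11.1%, 6.95% and 8.47%. Its 49 self-standing holders included Gbp2, Gbp3, Ifi27, Rsad2 and Trim21, but also genes such as Kdm6b, Kcnc2, Stmn2 and Slco1c1. Herc6 and Xaf1, named below among interferon and immune genes, did not hold it. The AP-1 letters TGANTCA were in 9.79%, 11.5%, 4.23% and 6.91%, and the letters GAGGAAGT, bound by the myeloid factor PU.1, in 5.34%, 4.94%, 2.35% and 3.23%. The ETS letters CCGGAAGT, which hold a CpG, were in 1 self-standing promoter (0.297%), in 0.310% without a peak, in 7.48% of CpG-rich marked ones and in 4.70% of all. The partial site TTGGCA of NFI factors was in 19.3%, 19.8%, 10.8% and 13.8% in that order, the SOX letters ACAATGG in 2.37%, 4.98%, 1.72% and 2.89%, and the RFX letters GTTGCCAT in 2.37%, 0.931%, 1.20% and 1.11%. The cyclic AMP response element TGACGTCA, which holds a CpG, was in 0.593%, 0.857%, 3.55% and 2.43%, and the partial site GGACAGNGC of REST in 2.67%, 1.42%, 2.30% and 2.00%. A match gives the letters only, and no binding was measured.

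The gene lists of hippocampal cell types were read against the 6.89% of all CpG-poor promoters with a peak. The tissue label was checked against 18 markers: those of neurons, astrocytes, oligodendrocytes and endothelium each had a peak at some start site, as did the microglial marker Csf1r, while Cx3cr1, the liver gene Alb, the muscle gene Acta1 and the keratinocyte gene Krt14 had none. Of the CpG-poor genes of each list, a peak was present in 5 of 6 for excitatory neurons, 3 of 5 for neurons in general, 4 of 10 for hippocampal fields and 1 of 6 for interneurons. It was present in 6 of 8 for astrocytes, 8 of 14 for oligodendrocytes and myelin, 0 of 4 for oligodendrocyte precursors, 5 of 30 for microglia, 4 of 11 for endothelium, 3 of 14 for mural and meningeal cells and 1 of 10 for ependyma and choroid plexus. Lists of other tissues had 0 of 22 for liver, 0 of 23 for keratinocytes, 0 of 16 for testis and germ cells, 2 of 18 for striated muscle and 1 of 38 for blood cells other than microglia. The lists are small and were chosen with results of these data known, so the counts are descriptions.

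**Figure D5:**
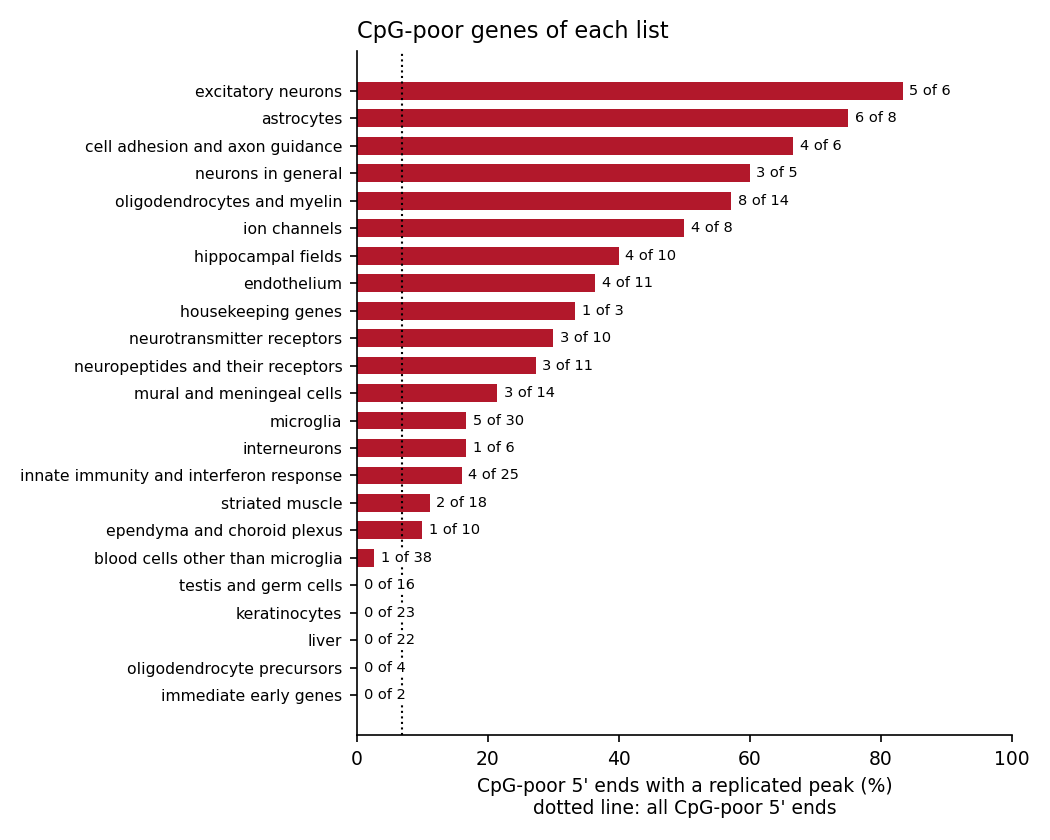
Share of the CpG-poor 5′ ends of each gene list that carried a replicated peak (%), with the number of promoters beside each bar. Excitatory neurons (5 of 6) and astrocytes (6 of 8) lead, and the dotted line marks the 6.89% over all CpG-poor 5′ ends.

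Among neuronal genes, Camk2a, a kinase abundant at excitatory synapses, Gria1 and Cck, a neuropeptide, had a CpG-rich start of the same gene under the peak. The ratio at that start was 0.311 in Camk2a and 0.350 in Gria1, near the limit of 0.3, and 0.663 in Cck. In Camk2a the start lay 1331 bp from the 5′ end, where the ratio was 0.297, and the summit lay 199 bp from it. Camk2a had 2355 bp (pool D) and 6332 bp (pool C), and Neurod6 and Tbr1 were self-standing. Tbr1, a transcription factor of excitatory neurons of the forebrain, had no pool D peak and 668 bp in pool C. Rgs14, a signalling regulator enriched in hippocampal field CA2, had 766 bp (pool D) and 2121 bp (pool C). Pcp4, a calmodulin regulator also enriched there, had 2484 bp (pool D) and 2944 bp (pool C). Of the channel genes, Kcnj9, an inward rectifier, had 2163 bp (pool D) and 2692 bp (pool C), and Kcnc2, a channel of fast-spiking cells, had 2539 bp (pool D) and 3369 bp (pool C). The list of ion channels held 8 CpG-poor promoters, and the 4 with a peak, Scn2b, Ano3, Kcnj9 and Kcnc2, were self-standing with a peak in both pools. Channel genes outside the list, named after their values were seen, were not all so: Kcnd1 and Tpcn2 were self-standing with peaks in both pools, Kcna5 was self-standing with 775 bp in pool C alone, and Trpm2 and Pkd2l2 had a CpG-rich start of the same gene under the peak. Dlg4, Gad1, Pvalb and Vip were among CpG-poor neuronal genes without a peak at the 5′ end.

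The marked CpG-poor promoters of astrocyte genes had peaks in both pools, at middle strength. Aldoc, a glycolytic enzyme, had 1190 bp (pool D) and 3997 bp (pool C). Fabp7, a lipid carrier, had 1971 bp (pool D) and 3372 bp (pool C), Mlc1, a membrane protein of astrocyte endfeet, 2066 bp (pool D) and 2640 bp (pool C), and S100b, a calcium-binding protein, 1490 bp (pool D) and 1917 bp (pool C). The 6 marked astrocyte promoters had a median width of 3106.5 bp at the 39.9th percentile of the replicated list. Aqp4 and Gfap had no replicated peak at the 5′ end.

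Most of the 8 marked CpG-poor promoters of oligodendrocyte and myelin genes had weak peaks. A further 26 genes of that list were CpG-rich, 24 of them with a peak, and their strength is not described here. Of the 8, the strongest was that of Adamts4, an extracellular matrix protease. It had 1600 bp (pool D) and 2889 bp (pool C), at the 39.2nd percentile of the replicated list. Mag, a myelin glycoprotein, had 574 bp (pool D) and 1915 bp (pool C), at the 7.90th and 43.4th percentiles. Ermn, a cytoskeletal protein of myelin, had 305 bp (pool D) and 714 bp (pool C). Tmem88b, a membrane protein, had 566 bp (pool D) and 731 bp (pool C). Mog and Enpp6 had no pool D peak and had 1066 and 525 bp in pool C. The 8 promoters had a median width of 879.5 bp at the 8.999th percentile of the replicated list, against 1232 bp at the 41.4th percentile over all 501.

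The marked CpG-poor promoters of microglial, endothelial and mural genes had median signal percentiles of 8.45, 20.7 and 21.0 in the replicated list. Tlr4, a receptor for bacterial lipopolysaccharide, was the strongest of the 5 microglial ones, with 1373 bp (pool D) and 1793 bp (pool C). Cd68 and Cd53 had 250 and 505 bp in pool D and 794 and 587 bp in pool C, while C1qc, a chain of complement C1q, and Tmem119 had no pool D peak and 664 and 286 bp in pool C. Pool D held a peak at 3 and pool C at 11 of the 30 CpG-poor microglial promoters, and Trem2, Tyrobp, Ctss, Fcer1g, Fcgr1 and Siglech were marked in pool C but not in the replicated list. Of the endothelial genes, Slco1c1 was the strongest, with a 4376 bp peak at the 46.9th percentile of the replicated list, above the 41.4 of all 501. Slco1a4, an organic anion transporter, had 697 bp (pool D) and 2978 bp (pool C), and the cadherin gene Cdh5 had 2319 bp in pool C. In pool D, Cdh5 had no peak in the window but one of 372 bp under its replicated peak, 1576 bp from the 5′ end. None of the CpG-poor mural promoters had a pool D peak within 500 bp of the 5′ end. Dcn, the matrix proteoglycan decorin, had 1492 bp in pool C, Col1a2, a collagen chain, 1186 bp and Vtn, vitronectin, 332 bp. Under the replicated peaks of Dcn and Col1a2, pool D had peaks of 516 and 873 bp just outside the window, at 533 and 556 bp from the 5′ end. Put together after the values were seen, the lists of neurons, channels, receptors, adhesion and astrocytes held 28 marked among 56 CpG-poor promoters, with 26 of the 28 marked in both pools. The lists of oligodendrocytes, their precursors, microglia and vessels held 20 among 73, with 11 of the 20 marked in both pools and 9 in pool C alone, of which 3 had a pool D peak elsewhere under the replicated peak. A further 14 of the 73, and 0 of the 56, had a pool C peak and no replicated one. The lists of neuropeptides and their receptors (3 marked of 11), immediate early genes (0 of 2) and ependyma and choroid plexus (1 of 10) entered neither group. Hcrt of the neuropeptide list and Rarres2 of the ependyma list also had a pool C peak and no replicated one. Median signal percentiles were 56.1 in the first group and 15.4 in the second. These lists moved with the pool: the part of tissue composition, depth and peak strength in it was not tested.

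Interferon and immune genes were a further group. The list of innate immunity had 4 marked among 25 CpG-poor promoters (16%, against 6.89% over all CpG-poor promoters), all 4 self-standing and marked in both pools. Gbp3, a guanylate-binding protein, had 1035 bp (pool D) and 1385 bp (pool C), its relative Gbp2 had 1041 and 1400 bp, Ifi27 had 809 and 1072 bp, and Rsad2, an antiviral enzyme, had 699 and 703 bp in pools D and C. Others, named after their values were seen, were Herc6 with 944 bp (pool D) and 1176 bp (pool C), Xaf1 with 872 bp (pool D) and 1502 bp (pool C), and Trim21 with 819 bp (pool D) and 1118 bp (pool C). Isg15, Mx1, Oas1a, Ifit3 and the class II genes H2-Aa and H2-Ab1 were CpG-poor without a replicated peak. Of genes named as interleukins or their receptors, 4 of 52 CpG-poor promoters were marked (7.69%), a share near the 6.89% over all, and they included Il18, Il15 and Il33. Of chemokine genes 0 of 24 were marked.

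Large gene families accounted for much of the CpG-poor group and few of the marked promoters. None of 1118 CpG-poor olfactory receptor and 329 vomeronasal receptor promoters had a peak in any of the 3 lists. Without them 501 of 5820 CpG-poor promoters were marked (8.61%). Defensins had 0 of 59, C-type lectins and killer lectin receptors 0 of 45, keratin-associated proteins 0 of 49, and predicted genes named Gm 7 of 1046 (0.669%). Zinc finger genes named Zfp had 9 of 47 (19.1%), led by Zfp46 and Zfp950. Cytochrome P450 genes had 7 of 80 (8.75%), also near the 6.89% over all, and of the 80 pool D held a peak at 5 and pool C at 6. All 7 were of the Cyp2j and Cyp4f subfamilies, with Cyp2j6 at 1396 bp (pool D) and 2954 bp (pool C). Other CpG-poor genes of these subfamilies, such as Cyp2j5, Cyp2j7, Cyp2j8 and Cyp2j11, had no replicated peak. Solute carriers had 8 of 94 (8.51%) and serpins 3 of 55 (5.45%), shares near the 6.89% over all, and the serpins were led by Serpina3n with 1594 bp (pool D) and 1780 bp (pool C). Among autosomes, the marked share of CpG-poor promoters ran from 3.64% on chromosome 14 to 16.5% on chromosome 18. Over all promoters of these 2 chromosomes, 50.8% and 67.8% were marked. On X 25 of 370 and on Y 0 of 161 CpG-poor promoters were marked, against 46.7% and 2.19% of all promoters there.

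Among self-standing promoters with a peak in pool C and none in pool D, the strongest were Ltb4r2, Gramd4, Ltbp3, Cirbp and Nhlh2. Ltb4r2, a leukotriene receptor, had 1156 bp in pool C, Ltbp3, which binds latent TGF-β, 1706 bp and Cirbp, a cold-induced RNA-binding protein, 1759 bp. In all 5 the replicated peak began 382 to 482 bp from the 5′ end, and pool D had a peak under it that began 508 to 830 bp away, outside the window. Over the 88 promoters with a peak in pool C alone, 25 had such a pool D peak under the replicated peak and 63 had none. In the self-standing class these counts were 13 and 58 of 71.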

How the data were processed

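Members and gene lists were chosen with earlier results of these data known. The authors deposited 4 narrowPeak lists on mm10: replicated peaks, pseudoreplicated peaks of pool D, of pool C and of both pools together, per the labels and the per-library notes. The deposited signal value per peak was used only to rank peaks within a list, and the deposited −log10 q value only to filter. The summit is the offset the authors deposited. The sources used here name a control alignment but neither the peak caller nor its settings. Sequencing depth is unknown, so no counting interval is given, and a shallower pool would hold fewer weak peaks.

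With Python 3.11.15, gene 5′ ends (the outermost annotated start) and all start sites were taken from GENCODE M21 and sequence from GRCm38, the same build as mm10, on 21 chromosomes. Peaks and windows overlapped when they shared at least 1 bp. A start was CpG-rich at a ratio of 0.3 or more. The functions were tested on simulated data. No p-values were computed: each pool gave 1 list, and the peak chose the promoters. Technical replicates were merged by the authors before the lists were made, per the per-library notes.

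Genes were named by a rule: the 15 strongest, 10 widest and 8 most CpG-poor self-standing promoters, the 5 widest with 1 start, the 5 strongest in pool C alone, the 5 strongest with a CpG-rich start of the same or of another gene, the 3 on each side of the limit, and the strongest 3 of each symbol list or 2 of each family. Other names were added after their values were seen: further members of the lists and pairs, the promoters at the window edge and the genes without a peak. Of 859 list entries, 6 matched no gene. A few promoters that the rule takes are not reported here.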

Additional observations from a re-analysis of the deposited data

How the results depend on the processing

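No paired analysis was possible because the values come from no test. The 501 promoters became 140 and 1112 with a CpG limit of 0.2 and 0.4, 287 where the peak had to cover the 5′ end and 265 where it had to cover 50% of the window. They became 651 for peaks within 1000 bp, a move above the spread between pools (SD 139.3), and stayed within 1.5 times of 501 under 9 of 13 alternatives. The marked share of 6.89% became 2.80%, 12.7%, 3.95% and 3.65% in that order, and 8.96% for peaks within 1000 bp. The share with no CpG-rich start under the peaks (70.1%) became 74.3% at the limit of 0.2, 59.4% with CpG counted 250 bp either side, 75.7% and 62.8% for peaks within 250 and 1000 bp, 77.7% where the peak covered the 5′ end, 74.7% for 50% of the window, 63.5% for −log10 q of 5 or more and 86.6% when a CpG-rich start needed a ratio of 0.6. Median width (1232 bp) became 1352 bp at the limit of 0.4, 1361.5 and 1150 bp with CpG counted over 250 and 1000 bp, 1315 bp for peaks within 1000 bp, 1414 bp where the 5′ end was covered, 1577 bp for 50% of the window, 1126.5 bp in the pool D list, 1148 bp in the list of both pools, 1490 bp for −log10 q of 5 or more and 1463 bp with peaks joined across 1 kb. The median signal percentile (41.4) became 49.7 in the pool C list. The TATA share (0.599%) became 1.17% in the pool C list, 1.597% with TATAAA 60 to 1 bp upstream and 3.19% with TATA alone. The cause was not tested. Alternatives not named here moved these values by less than the spread between pools. Pools of 7 tissue samples with 1 list each give no spread within a pool.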
